A study of Rattus norvegicus with 939 samples.

Results

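Cultured rat hepatocytes exposed to etoposide for 0.67 d or 1 d are described here, as 6 treated arrays set against 24 vehicle control arrays out of 939 arrays in the series. A treated array was a member when its compound label was Etoposide, and a control array was a member when its description listed Etoposide among the compounds it served. The dose was 125 uM at both exposure times, with 3 treated and 12 control arrays at each time. All 30 arrays carried poly A RNA from primary rat hepatocytes that had received DMSO, the solvent of the drug, so the solvent is common to both arms. The series surveyed many drugs and toxicants in such cultures on an Affymetrix rat expression array. By the labels, control arrays fell into 12 cultures, each sampled at both times. The culture of a treated array was not labelled, so the spread between treated arrays may be technical, and p-values measure only the spread between these samples.

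Etoposide is a cancer drug that traps topoisomerase II on DNA after it has opened both strands, leaving protein-linked double-strand breaks. Such breaks start the DNA damage signal, which stabilizes the transcription factor p53, and p53 in turn raises genes of cell cycle arrest, of its own restraint and of cell death. Hepatocytes in primary culture divide little, and the topoisomerase II that resting cells carry is the beta form, encoded by Top2b, whereas the alpha form, encoded by Top2a, belongs to dividing cells.

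Values are log2 expression after RMA, a background correction and normalization of array signal. A gene was called when its adjusted p by limma was at most 0.01 over all 14218 genes and its change was at least 1.5-fold. The hepatocyte label was met by its markers: the 8 measured markers had a median level at percentile 99.5 of all genes in the control arrays, and their mean lay between 12.65 and 12.75 in treated arrays and between 12.45 and 12.77 in controls. Treated arrays are named a, b and c within each time, in order of RNA extraction and then of hybridization day. They were extracted on 3 of 7 extraction days, each of which also held controls of the same times. Arrays a of both times deviated together from their group means (correlation of residuals 0.42), as did arrays b (0.61) and arrays c (0.56). The b arrays of both times stood apart for interferon-related genes. For most genes that lost their call without them this is stated, often with both values. Low RNA of a cell type in such bulk samples can mean fewer cells or less RNA per cell, and these cannot be told apart.

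Over both exposure times, 107 genes were higher with etoposide (0.753% of those tested) and 105 were lower (0.739%). At 0.67 d alone, 54 genes were higher (0.38%) and 49 lower (0.345%), and at 1 d alone 66 were higher (0.464%) and 55 lower (0.387%). The estimate had the same sign at both times for all 212 genes called over both times, and 76 of them were called at each time separately. The change at 1 d was compared with that at 0.67 d by an interaction contrast, which passed an adjusted p of 0.05 for 0 genes (0%). The smallest adjusted p of that contrast by limma was 0.771, and 134 genes had an unadjusted p below 0.05. An ordinary linear model also gave 0, as did control culture as a random effect. That contrast takes the treated arrays as independent. With arrays of the same letter also taken as a block, a pairing that was seen in the data and is not in the labels, 1 gene passed, Smim35 (0.19 at 0.67 d and 0.79 at 1 d, adjusted p 0.0261), and 531 genes had an unadjusted p below 0.05. For Cdkn1a the change was 1.02 at 0.67 d and 1.65 at 1 d on the log2 scale. The 95% interval of that difference ran from -0.09 to 1.36, and from 0.13 to 1.14 with the letters as blocks (adjusted p 1). Without the b arrays of both times, 71 genes were higher and 72 lower, and 127 of the 212 were still called.

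The p53 targets come first, as the textbook readout of DNA damage. Cdkn1a encodes p21, the inhibitor of cyclin-dependent kinases that stops the cell cycle. Its log2 level was 11.19, 11.60 and 10.40 in treated arrays a, b and c at 0.67 d, where controls ran from 9.53 through a median of 10.02 to 10.59. At 1 d the treated arrays read 11.32, 12.01 and 11.34, and the controls ran from 9.36 through 9.85 to 10.58. Of the 6 treated arrays, only array c at 0.67 d lay within the range of the controls of its time. Over both times Cdkn1a was higher by 1.34 ± 0.18 (SE; adjusted p by limma 4.6e-06), and the 3 extraction days taken one at a time gave 1.13, 1.36 and 1.26. Its second probe set, which reads lower, gave 1.71 ± 0.37.

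Phlda3, a p53-induced brake on AKT signalling, separated the arms completely. The treated arrays read 10.92, 10.69 and 10.80 at 0.67 d against controls of 9.85 to 10.25 (median 9.96), and 10.82, 10.78 and 10.96 at 1 d against 9.79 to 10.19 (median 10.05). No treated array overlapped a control, and the change was 0.82 ± 0.06 (adjusted p 4.53e-11). Mdm2, the ubiquitin ligase that degrades p53 and is itself a p53 target, read 11.18, 11.22 and 11.16 at 0.67 d against 10.04 to 10.90 (median 10.55). At 1 d it read 11.17, 11.16 and 11.04 against 10.10 to 10.68 (median 10.38). It too was apart at both times, with a change of 0.70 ± 0.09 (adjusted p 1.98e-06), and its other probe sets gave 0.80 and 1.06.

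In the cell death branch, 2 genes were called. Bbc3, which encodes the BH3-only protein PUMA, read 8.99, 9.45 and 9.48 at 0.67 d against controls of 8.49 to 8.93 (median 8.69). The 1 d arrays read 9.02, 9.30 and 9.45 against 8.36 to 8.74 (median 8.61), so that all 6 treated arrays lay above the controls, with a change of 0.66 ± 0.07 (adjusted p 6.35e-08). Ei24, a p53-induced membrane protein of the endoplasmic reticulum, was higher by 0.63 ± 0.06 (adjusted p 5.02e-09) and also apart, but its change with extraction day as a block was 0.54, under the fold bound. Gdf15, a secreted stress cytokine counted with the arrest and stress genes, was higher by 0.74 ± 0.18 (adjusted p 0.00469), its treated arrays overlapped the controls at 0.67 d, and its call was lost in 10 of 20 alternatives. Of the cell death genes, Fas, the death receptor, had a change of 0.51 ± 0.11 (adjusted p 0.00165), under the 1.5-fold bound. Bcl2l1, which encodes the survival protein BCL-XL and is no member of the p53 lists, was higher by 0.64 ± 0.09 (adjusted p 6.04e-06). Its other probe sets gave 0.55 ± 0.22 and 0.14 ± 0.09, and its call was lost in 3 of 20 alternatives, among them the median of its probe sets.

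**Figure D1:**
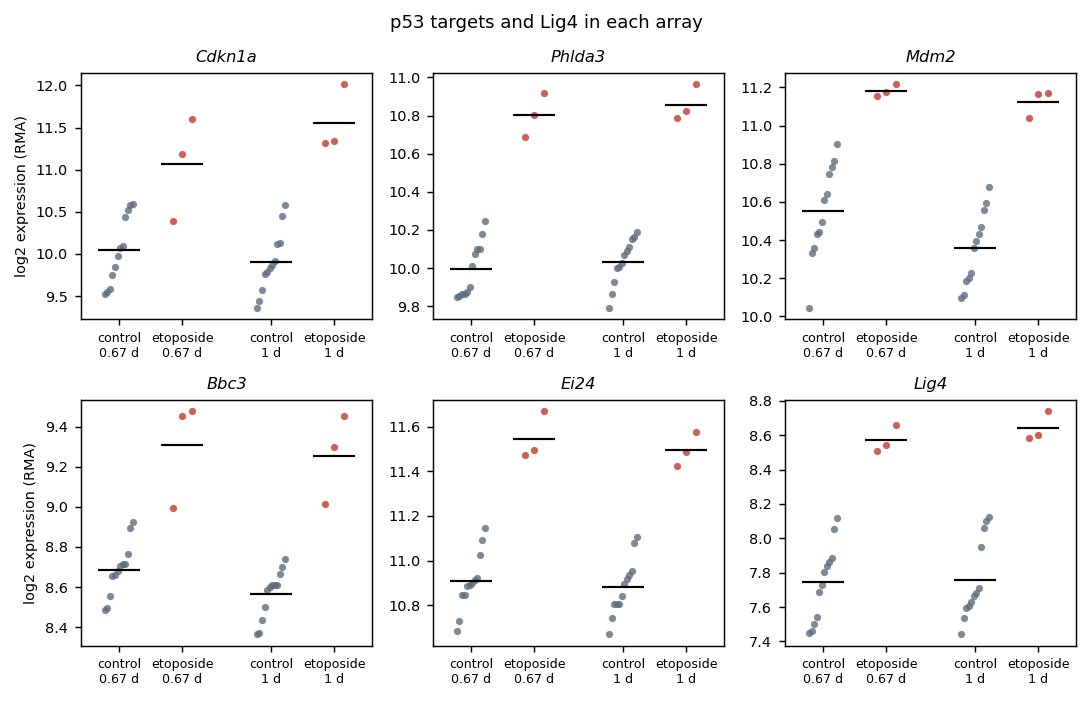
Log2 expression (RMA, vertical axis) of 5 p53 targets and of Lig4 in every array, control in grey (12 arrays a time) and etoposide in red (3 a time), with bars at group means. All treated points of Phlda3, Mdm2, Bbc3, Ei24 and Lig4 lie above every control of their time, and 1 treated point of Cdkn1a at 0.67 d (10.40) lies within the controls.

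Taken as lists, 6 of 39 measured p53 targets were called higher and 0 lower, against 0.753% and 0.739% of all genes. An adjusted p at or below 0.01 was reached by 13 of the 39, every one of them with an estimate above 0. Over all 14218 genes 1114 reached it, 508 of them with an estimate above 0. The median change was 0.47 over the 12 measured genes of arrest and stress (3 higher), 0.43 over the 11 of cell death (2 higher), 0.25 over the 7 of feedback (1 higher) and 0.02 over the 9 of repair and metabolism (0 higher), beside 0.02 over all genes. The other members with an adjusted p at or below 0.01 stayed under the fold bound. Among these, Sesn2, a stress-induced inhibitor of mTORC1 signalling, had a change of 0.54, Mdm4, an inhibitor of p53 related to Mdm2, had 0.53, and Ccng1 and Pml each had 0.49. Some targets known from other tissues showed no such shift: Zmat3 had -0.11, Ninj1 had -0.06, and the nucleotide excision repair genes Xpc and Ddb2 had 0.11 and 0.01. The largest negative estimate among them was that of Mgmt, which removes alkyl groups from guanine, at -0.57 ± 0.17 (adjusted p 0.0201). Without the b arrays, 2 genes of arrest, 1 of feedback and 2 of cell death were called higher, and Gdf15 was the one lost (0.69, adjusted p 0.0491). As further genes linked to the damage response, chosen after their values were seen, the growth arrest gene Gadd45b was higher by 0.81 ± 0.12 (adjusted p 1.18e-05) and Rprm, a p53-induced arrest gene, by 0.89 ± 0.20 (adjusted p 0.0018). Rprm had no call in 7 of 19 alternatives, among them that without the b arrays.

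On the probe sets used, the genes of the drug's own targets did not pass the test. Top2b read 8.94, 8.98 and 8.99 in treated arrays at 0.67 d and 9.01, 9.02 and 9.12 at 1 d, against control ranges of 8.88 to 9.40 and 9.05 to 9.42. Array a and array b at 1 d lay just below the controls, and the change was -0.17 ± 0.07 (adjusted p 0.0834). Its second probe set, which reads lower (mean of 7.93 in controls), gave -0.32 ± 0.08 and was not among the values tested. Top2a read 3.91 to 4.18 in treated arrays and 3.72 to 4.35 in controls, near the bottom of the scale in both arms. All 8 genes of the topoisomerase list had estimates between -0.17 and 0.12 on the probe sets used, and 0 were called. They include Tdp2, which removes topoisomerase II remnants from broken ends.

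Repair of double-strand breaks proceeds in resting cells mainly by end joining, in which DNA ligase IV, encoded by Lig4, seals the ends with XLF, encoded by Nhej1. Lig4 read 8.51, 8.54 and 8.66 in treated arrays at 0.67 d against controls of 7.45 to 8.12 (median 7.77). The arrays at 1 d read 8.60, 8.74 and 8.59 against 7.44 to 8.12 (median 7.67). The arms did not overlap, and the change was 0.86 ± 0.09 (adjusted p 1.09e-07), with 0.49 for its second probe set. Nhej1 was higher by 0.66 ± 0.13 (adjusted p 3.97e-04), with 2 of 3 treated arrays above all controls at each time. These were the 2 called genes among 35 measured genes of break signalling and repair, whose median was -0.06. Among 38 genes of DNA replication and mitosis, Mcm6, a subunit of the replicative helicase, was lower, with a change of -0.75 ± 0.14, and 0 were higher. Its fellow subunits Mcm2 and Mcm7, the next lowest of the list, had changes of -0.39 and -0.37, both under the fold bound. The median of the list was 0.01, and 21 of 38 estimates lay above 0. The highest was that of Ccnd1, at 1.12 ± 0.33 and not called. Ccnd1 was called with controls of set 13 alone (1.505) and with replicate numbers as a block (1.541).

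The largest log2 change among the probe sets used was that of Adam8, a membrane-bound metalloprotease known from leukocytes and inflamed tissue. It read 7.14, 8.03 and 7.58 at 0.67 d against controls of 4.15 to 4.98 (median 4.4), and 8.16, 8.03 and 7.63 at 1 d against 4.14 to 5.36 (median 4.55). The change was 3.22 ± 0.13 on the log2 scale (adjusted p 9.59e-18), and no array overlapped. Controls lay near the bottom of the scale, so the size of the change depends on background, and a filter on low values left the gene out. A second Adam8 probe set had about the same mean in controls (4.41 against 4.54) and a change of 0.16 ± 0.08, so that the median of both probe sets gives 1.69, and the largest change is then that of Gbp4 (2.93). The probe sets thus disagree, and which transcript each reads was not tested. Hapln3, a link protein of the hyaluronan matrix, read 6.83, 6.74 and 6.70 at 0.67 d and 6.68, 6.87 and 6.78 at 1 d, against 4.47 to 4.87 and 4.45 to 4.79 in controls. Its arms were apart by more than their whole spread, with a change of 2.07 ± 0.05 (adjusted p 1.37e-24). Spetex2l2, one of a rat gene family of many similar copies whose probes may cross-react, was higher by 1.96 ± 0.12 and also apart. Slc4a11, a membrane transporter of the bicarbonate transporter family, was higher by 1.34 ± 0.11 with all treated arrays above the controls, and Svop, a synaptic vesicle protein, by 1.22 ± 0.10. Pinlyp, an inhibitor of phospholipase A2, was higher by 1.98 ± 0.34 over both times, yet its a arrays (5.71 and 5.58) lay within the controls and its call was lost without the b arrays (1.22, adjusted p 0.016).

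Guanylate-binding proteins, interferon-induced GTPases of cell-autonomous defence, and chemokines of the CXCR3 receptor were the next group among the largest changes. Promoters of Gbp2, Gbp4, Gbp7, Cxcl10 and Isg20, an interferon-induced exonuclease named after its values were seen, are shown. These genes were called higher, all but Gbp7 also without the b arrays, and their promoters were picked because they hold the core of the interferon-stimulated response element, the site bound by interferon-induced factors. Each line gives the 250 bases before the RefSeq transcription start (rat build GRCr8), read 5′ to 3′ on the strand of the gene, with the element in capitals. Gbp2 is at chr2:234005477-234005726, Gbp4 at chr2:233978236-233978485, Gbp7 at chr2:233948639-233948888, Cxcl10 at chr14:15988816-15989065 and Isg20 at chr1:142239809-142240058, all on the plus strand.
Gbp2: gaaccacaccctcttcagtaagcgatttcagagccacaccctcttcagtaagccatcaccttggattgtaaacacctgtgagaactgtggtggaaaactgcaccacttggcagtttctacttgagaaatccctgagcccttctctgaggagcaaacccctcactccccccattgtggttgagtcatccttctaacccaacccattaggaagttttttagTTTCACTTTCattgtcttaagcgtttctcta
Gbp4: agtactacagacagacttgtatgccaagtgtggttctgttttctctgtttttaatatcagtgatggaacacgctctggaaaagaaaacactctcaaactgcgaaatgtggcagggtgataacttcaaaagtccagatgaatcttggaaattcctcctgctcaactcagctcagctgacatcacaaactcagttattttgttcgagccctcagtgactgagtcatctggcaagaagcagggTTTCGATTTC
Gbp7: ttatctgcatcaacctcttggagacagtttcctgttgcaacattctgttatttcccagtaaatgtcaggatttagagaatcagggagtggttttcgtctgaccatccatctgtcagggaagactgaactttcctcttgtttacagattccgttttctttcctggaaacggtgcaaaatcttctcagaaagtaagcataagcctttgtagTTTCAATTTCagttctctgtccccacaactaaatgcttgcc
Cxcl10: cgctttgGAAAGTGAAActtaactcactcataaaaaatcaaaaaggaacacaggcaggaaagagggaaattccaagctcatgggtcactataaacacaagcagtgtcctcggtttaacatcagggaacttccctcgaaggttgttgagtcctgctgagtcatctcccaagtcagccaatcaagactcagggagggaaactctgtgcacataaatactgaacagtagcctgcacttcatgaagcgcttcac
Isg20: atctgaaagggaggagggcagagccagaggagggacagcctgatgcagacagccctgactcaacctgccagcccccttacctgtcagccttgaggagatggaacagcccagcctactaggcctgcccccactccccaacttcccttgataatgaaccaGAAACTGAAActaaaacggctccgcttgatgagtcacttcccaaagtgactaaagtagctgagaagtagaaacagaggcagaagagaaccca

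The motif searched was GAAANNGAAA on either strand within 250 bases before to 50 bases after the start, and the 3 Gbp genes carry it on the opposite strand. It begins 31, 10 and 41 bases before the start of Gbp2, Gbp4 and Gbp7. It was found in 13 of 90 promoters of genes called higher (14.4%), in 1 of 83 of genes called lower (1.2%), in 351 of 11735 of all genes tested (2.99%) and in 1034 of 27457 promoters in the table (3.77%). For genes called higher without the b arrays the count was 5 of 58 (8.62%). Cxcl11 has no match in this window. A match of letters is a description and not a bound site. The p53 site, searched as a pair of half-sites by its published degenerate motif with a spacer of up to 13 bases, was found in 1 promoter of the genes called higher, that of Eif2ak2, and in 3 of 11735 of all genes tested (0.0256%), and this short window does not reach sites far upstream or within introns. A half-site was found in 10 of 90 promoters of genes called higher (11.1%), 3 of 83 called lower (3.61%) and 800 of 11735 tested (6.82%). For genes called higher without the b arrays the half-site count was 9 of 58 (15.5%).

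Gbp4 read 7.94, 10.01 and 8.67 at 0.67 d against controls of 4.99 to 7.39 (median 5.82), and 8.56, 10.29 and 8.39 at 1 d against 5.18 to 7.16 (median 6.23). The arms did not overlap, the b arrays were highest at both times, and the change was 2.93 ± 0.33 (adjusted p 2.28e-07), or 2.34 without the b arrays (adjusted p 6.14e-05). Gbp2 read 9.09, 10.60 and 10.22 at 0.67 d against 7.24 to 8.91 (median 8.52) and 10.08, 10.96 and 10.27 at 1 d against 8.05 to 9.42 (median 8.75), with a change of 1.67 ± 0.22 (adjusted p 1.9e-06). Gbp7 was higher by 1.86 ± 0.42 (adjusted p 0.00229), but lost its call without the b arrays (1.27, adjusted p 0.0951). Probes of these related genes may cross-react. Cxcl10, a chemokine that draws activated T cells, read 8.55, 9.11 and 8.71 at 0.67 d against 6.70 to 9.07, where 1 treated array lay above all controls. At 1 d it read 9.40, 9.84 and 9.19 against 6.71 to 8.14, where all 3 did. Its change was 1.51 ± 0.25 (adjusted p 7.63e-05), and Cxcl11, a ligand of the same receptor, was higher by 1.45 ± 0.13 (adjusted p 1.46e-09) with arms apart at both times. Both kept their calls without the b arrays (1.34 and 1.35), as did Isg20 (0.65).

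The list of interferon-stimulated genes gave a weaker picture than these leading genes. Of 20 measured members 2 were called higher, Irf7 and Irf1, the median change was 0.52, and all 20 estimates lay above 0. Over all 14218 genes 7779 estimates lay above 0. The mean log2 level of the list was 8.27, 9.68 and 8.69 in arrays a, b and c at 0.67 d, where controls ran from 7.79 to 8.91. At 1 d it was 8.38, 9.69 and 8.43 against 7.79 to 8.81. Only the b arrays lay above the controls. Isg15, a ubiquitin-like modifier, shows the same layout, with 9.31, 12.42 and 10.61 at 0.67 d against controls of 8.09 to 11.03 and 10.11, 12.37 and 10.17 at 1 d against 7.81 to 10.71, and it was not called (1.29 ± 0.44, adjusted p 0.0459). Irf7, the factor that amplifies interferon expression, had a change of 1.09 ± 0.29 (adjusted p 0.00863) and lost its call in 12 of 20 alternatives. Without the b arrays the median of the list was 0.14, 16 of 20 estimates lay above 0 and 0 were called, Irf7 having 0.55 (adjusted p 0.282) and Irf1 0.56 (adjusted p 0.00342). What set the b arrays apart was not tested.

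**Figure D2:**
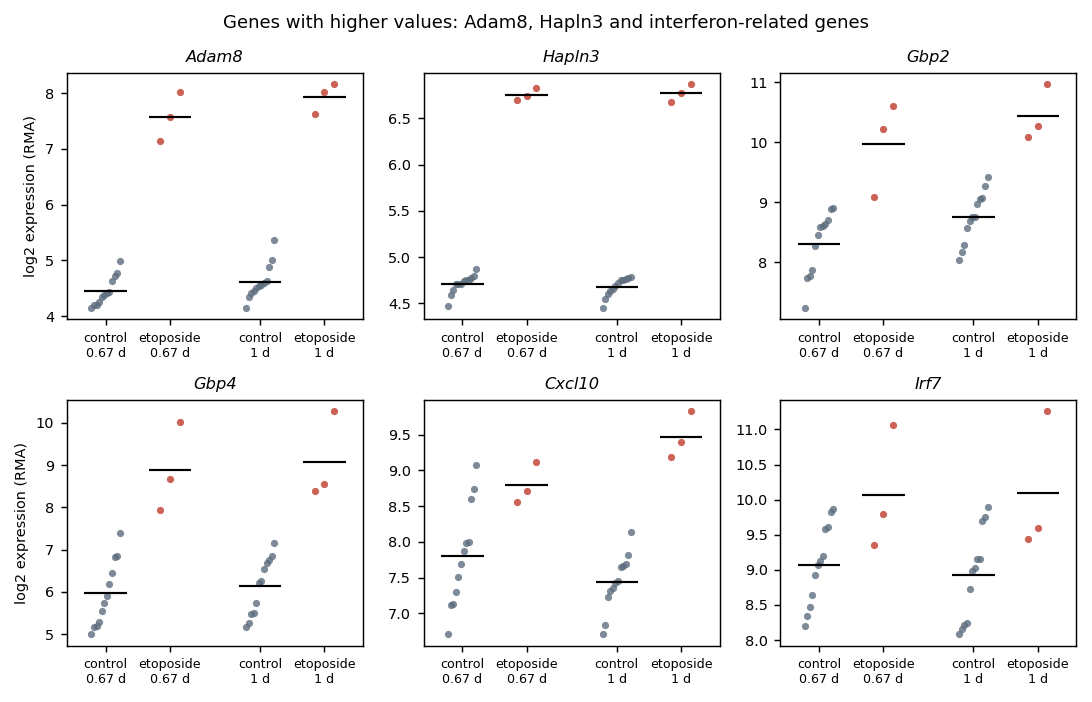
Log2 expression (RMA, vertical axis) of 6 genes called higher in every array, control in grey (12 arrays a time) and etoposide in red (3 a time), with bars at group means. Adam8, Hapln3, Gbp2 and Gbp4 are apart from the controls at both times, Cxcl10 at 1 d, and for Irf7 only 1 treated array a time, at 11.06 and 11.27, lies above the controls.

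Of 18 measured genes of hepatocyte functions 2 were higher, Pck1 and Hao1, and 1 was lower, Bdh1, and of 23 measured drug-metabolizing and other P450 genes 1 was higher and 0 lower. Cyp3a23-3a1, a cytochrome P450 induced through the pregnane X receptor, read 12.29, 12.76 and 12.26 at 0.67 d against 10.12 to 12.05 (median 11.52). After 1 d it read 12.93, 13.11 and 12.08 against 9.66 to 11.64 (median 10.82). The arms were apart, with a change of 1.53 ± 0.26 (adjusted p 9.38e-05), and the median of the P450 list was 0.21. Cyp26b1, a P450 that degrades retinoic acid and is not on that list, was lower, with a change of -2.51 ± 0.60 (adjusted p 0.00368), and its call was lost in 9 of 20 alternatives, among them that without the b arrays (-2.32). Its second probe set gave -0.74 ± 0.29. The glucuronosyltransferases Ugt2b1 and Ugt2b10, close relatives whose probes may cross-react, were higher by 1.91 ± 0.47 and 1.62 ± 0.21. Ugt2b10 was apart at both times, whereas the c arrays of Ugt2b1 (7.98 and 7.21) lay within the controls. The call of Ugt2b1 was lost in 8 of 20 alternatives, among them that without the b arrays. Ces2c, a carboxylesterase named after its values were seen, was higher by 1.00 ± 0.09 (adjusted p 9.3e-10) and apart.

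Pck1, the key enzyme of gluconeogenesis, was higher by 1.39 ± 0.28 (adjusted p 6.77e-04), with 5 of 6 treated arrays above all controls of their time. Hao1, a peroxisomal oxidase of glycolate, was higher by 0.80 ± 0.18, and lost its call without the b arrays (0.78, adjusted p 0.0229). Bdh1, an enzyme of ketone bodies, fell by 0.74 ± 0.15 (adjusted p 6.09e-04). Of 23 measured targets of PPARa, the receptor that drives fat oxidation, 3 were called higher and 0 lower, with a median of 0.17. These were Angptl4, a lipoprotein lipase inhibitor, at 0.90 ± 0.16, Cpt1a, which brings fatty acids into mitochondria, at 0.74 ± 0.15, and Hsdl2, a peroxisomal dehydrogenase, at 0.59 ± 0.09. Without the b arrays 1 of the 23 was called, Angptl4 (0.81, adjusted p 0.00748), and Cpt1a and Hsdl2 lost their calls. Of the 8 hepatocyte markers 0 were called. Albumin (Alb) had a change of 0.00 ± 0.03, transthyretin (Ttr) of 0.09 ± 0.07, and Hnf4a, the liver transcription factor, of 0.32 ± 0.07 (adjusted p 0.00143), under the fold bound. Single genes were called among the BCL2 family (Bcl2l1), NF-kB targets and chemokines (Cxcl10), immediate early genes (Myc) and clock genes (Npas2, -0.63 ± 0.17, with the call lost in 14 of 20 alternatives and -0.46 without the b arrays). In the lists of liver transcription factors, bile acid, cholesterol and fatty acid synthesis, drug transport, complement and coagulation, endoplasmic reticulum chaperones, heat shock, NRF2 and proteasome, 0 genes were called in either direction.

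Several enzymes of serine synthesis and of folate metabolism were among the lower genes, as 4 named genes and not as a list that was counted. Phgdh, the first enzyme of serine synthesis, read 8.28, 8.46 and 8.30 at 0.67 d against 8.92 to 9.80 (median 9.35). After 1 d it read 8.66, 7.73 and 7.78 against 8.94 to 9.69 (median 9.45). The arms were apart, with a change of -1.15 ± 0.13 (adjusted p 2.02e-07). Psat1, the next enzyme in that route, had -1.19 ± 0.17 (adjusted p 1.24e-05), with 1 treated array at 0.67 d (9.16) just inside the controls. Mthfd1l, a mitochondrial folate enzyme, fell by 1.27 ± 0.11 (adjusted p 9.3e-10) and was apart at both times. Its relative Mthfd2 had a change of -0.94 ± 0.21 (adjusted p 0.00203), with array c at 1 d (5.03) lowest, and its values on the 3 extraction days were -0.50, 0.20 and -2.23. Of the 20 genes of the ATF4 and CHOP list, which respond to amino acid and endoplasmic reticulum stress, 4 were lower (Phgdh, Psat1, Mthfd2 and the asparagine synthetase gene Asns, at -0.76 ± 0.12) and 0 higher, with a median of -0.43. With extraction day as a block Mthfd2 (-0.75, adjusted p 0.0598) and Asns (-0.58, under the fold bound) lost their calls, and Asns had -0.51, -0.26 and -1.03 on the 3 days. Ppp1r15a and Trib3, stress-induced members of the same list, had 0.05 and -0.01. Slc7a1, a carrier of cationic amino acids, fell by 1.15 ± 0.11 (adjusted p 1.04e-08), and Aldh18a1, the first enzyme of proline synthesis, named after its values were seen, fell by 0.95 ± 0.13 (adjusted p 2.87e-06), both with arms apart.

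Myc, a transcription factor of growth and ribosome synthesis, read 9.01, 8.97 and 9.03 at 0.67 d against 9.82 to 10.64 (median 10.16), and 9.09, 8.94 and 9.02 at 1 d against 9.71 to 10.53 (median 10.02). The treated arrays hardly differed from each other and lay below every control, with a change of -1.08 ± 0.10 (adjusted p 1.87e-09). Of 19 measured genes of ribosome biogenesis, 14 had an adjusted p at or below 0.01, all 14 with estimates below 0. Over all 14218 genes 606 had such an adjusted p with an estimate below 0. In the list only Polr1b, a subunit of RNA polymerase I, reached the fold bound (-0.61 ± 0.09). The median of that list was -0.32. After subtraction of each array's median or a further quantile normalization the list median was -0.29 and -0.30, and Polr1b lost its call in both. Nhp2 and Gar1, proteins of the small nucleolar particles that modify ribosomal RNA, each had -0.53.

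Some of the largest decreases were in genes known from cells other than hepatocytes. Fabp4, a fatty acid carrier of capillary endothelium, fat cells and macrophages, read 5.39, 4.95 and 5.88 at 0.67 d against 6.32 to 10.13 (median 7.76). After 1 d it read 4.63, 4.02 and 5.31 against 5.41 to 9.03 (median 7.13). The treated arrays lay below every control, and the controls themselves spread widely, with a change of -2.54 ± 0.48 (adjusted p 3.65e-04). Lyve1, a hyaluronan receptor of sinusoidal endothelium, had -2.15 ± 0.49 (adjusted p 0.00271), with 5 of 6 treated arrays below all controls of their time. Fcgr2b, an inhibitory Fc receptor that sinusoidal endothelium carries, had -2.32 ± 0.52, Cd93, an endothelial lectin-like receptor, had -1.67 ± 0.37, and the chemokine receptor gene Cxcr4 had -2.08 ± 0.35, all 3 with arms apart. A second Cd93 probe set, with a lower mean in controls (5.16 against 6.17), gave -0.05 ± 0.06. Kdr, the main receptor for VEGF, had -1.27 ± 0.34 (adjusted p 0.00899) and lost its call in 13 of 19 alternatives, and its second probe set gave 0.07.

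Of the 7 measured endothelial markers 2 were lower (Lyve1 and Kdr) and 0 higher. The mean log2 level of the markers was 4.43 to 4.87 in treated arrays and 4.57 to 6.10 in controls, so the ranges overlapped, and their summed level was 7.27 to 7.79 against 7.44 to 9.96. Stab2 and Vwf, which also mark endothelium, had 0.16 and 0.22. Of 9 Kupffer cell markers 1 was higher, Cd14 (0.65 ± 0.16), whereas Csf1r and C1qa had -0.32 and -0.62 and were not called. Of 8 stellate and 5 cholangiocyte markers 0 were called. With extraction day as a block, Fabp4, Fcgr2b, Lyve1, Cd93, Kdr and Cd14 lost their calls and Cxcr4 kept its call. The same 6 were lost without the b arrays, where Fabp4 had -2.27 (adjusted p 0.0128), Fcgr2b -2.46, Lyve1 -1.95, Cd93 -1.50, Kdr -1.18 and Cd14 0.52, and 0 endothelial or Kupffer cell markers were called, while Cxcr4 had -2.15 (adjusted p 0.00127). The part of the cell mixture in these changes was not tested. Among 17 measured genes of actin, matrix and YAP signalling, 2 were lower and 0 higher (median -0.36). These were Lox, a collagen cross-linking enzyme, at -1.61 ± 0.36, and Vim, vimentin, at -1.32 ± 0.32. Both were lost with extraction day as a block, and without the b arrays, where Lox had -0.91 (adjusted p 0.124) and Vim -1.15 (adjusted p 0.0608).

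**Figure D3:**
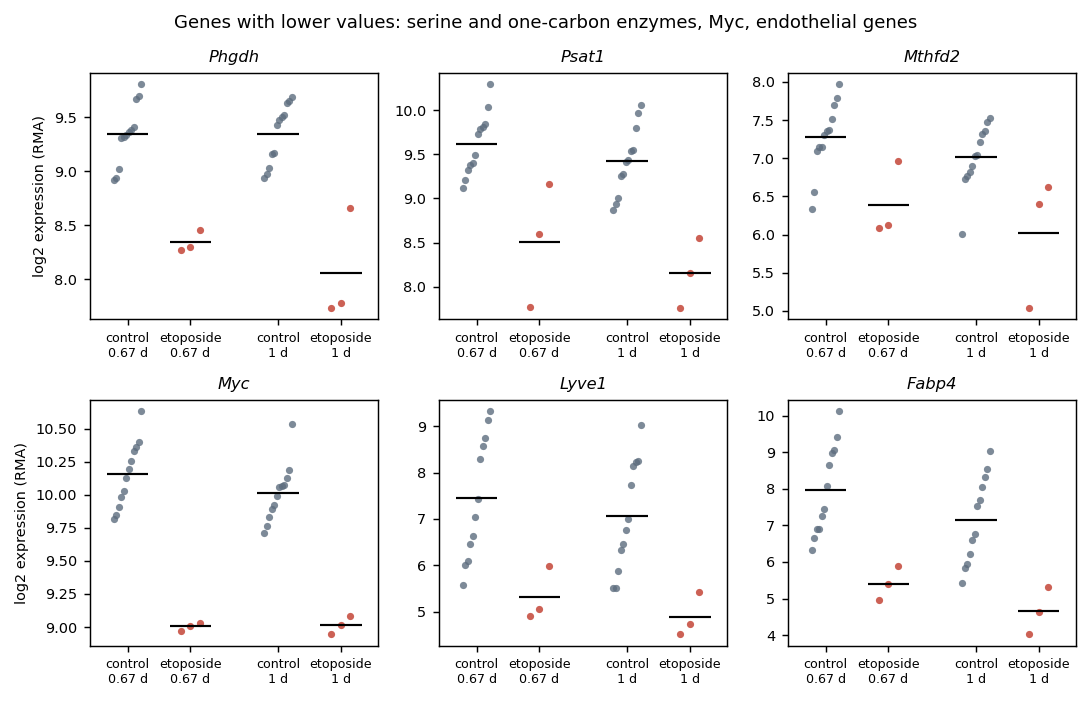
Log2 expression (RMA, vertical axis) of 6 genes called lower in every array, control in grey (12 arrays a time) and etoposide in red (3 a time), with bars at group means. Phgdh, Myc and Fabp4 lie below every control of their time, and 1 Mthfd2 array at 1 d (5.03) lies far below the other treated arrays.

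Topoisomerase poisons can hinder transcription along long genes, so genes with very long transcription units were counted as a list. Of 41 measured, 3 were lower and 0 higher, against 0.739% and 0.753% of all genes. Among the 41 estimates 34 lay below 0, as did 6439 of all 14218. The median was -0.15 beside 0.02 for all genes. The called genes were Ptprk, a receptor phosphatase (-0.73 ± 0.11), Zbtb20, a liver transcriptional repressor (-0.64 ± 0.10), and Pard3, a cell polarity protein (-0.61 ± 0.11), and 2 of the 41 had all treated arrays below the controls at both times. All 3 calls were lost without the b arrays (-0.57, -0.44 and -0.48). Other probe sets of Ptprk ranged from -0.55 to 0.05.

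**Figure D4:**
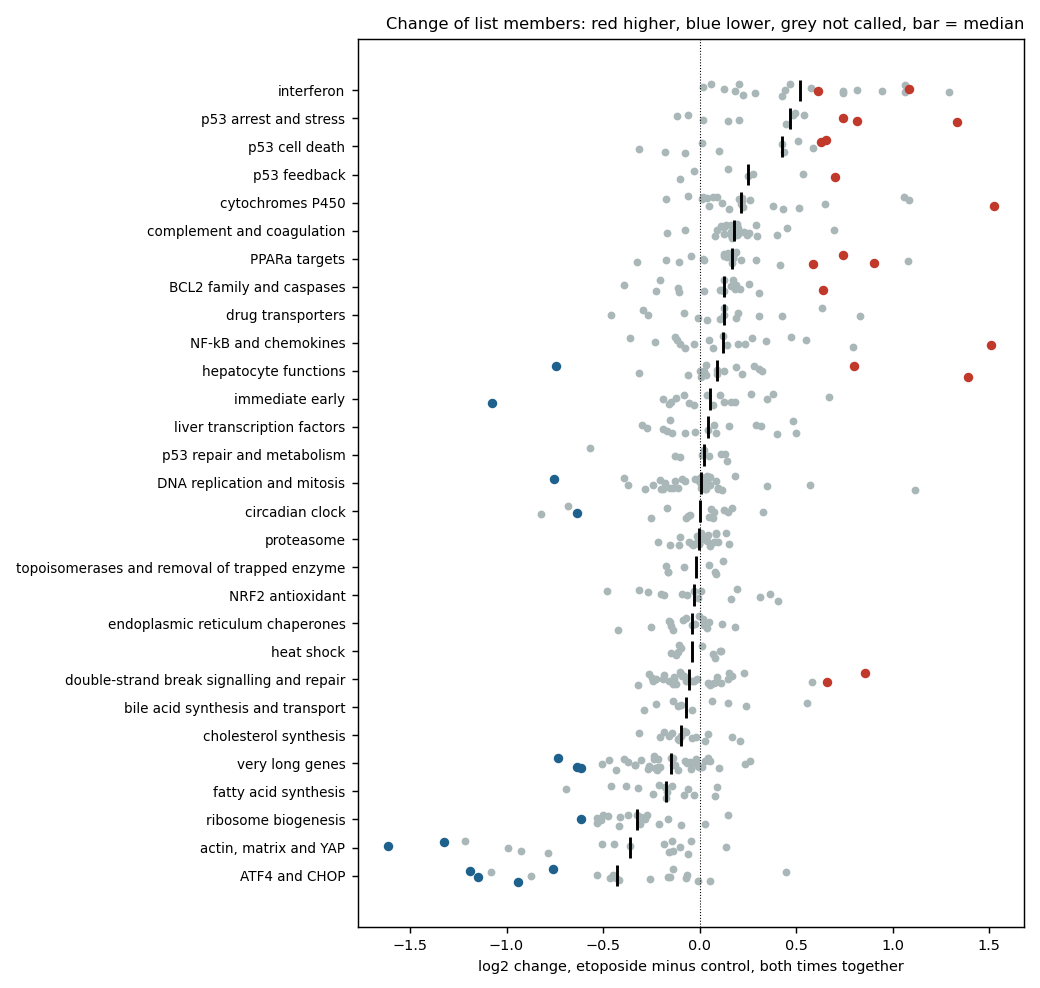
Log2 change with etoposide over both times (horizontal axis) of each measured member of 29 gene lists (rows, ordered by median), red for called higher, blue for called lower, grey for not called, with a black bar at the list median. The medians run from -0.43 for the ATF4 and CHOP list to 0.52 for the interferon list, and most members of most lists lie near 0.

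Across 120 compounds, each set against its own controls, etoposide called 212 genes, the 91st count from the highest, where the median compound called 835. They were taken from arrays hybridized before a chosen bound on the labelled date, which no label names as a batch. These ranks are descriptions, and 31 of the other compounds share control arrays with etoposide. The number of control arrays ran from 6 to 34 a compound, so the counts of called genes do not have equal power. For the Adam8 probe set used, with its low baseline, etoposide had the largest change of all (3.22), followed by N-Nitrosodiethylamine (3.09) and Idarubicin (2.80), beside a median of -0.24. Etoposide was 3rd for Hapln3, 6th for Cdkn1a and Phlda3 and 5th for Ei24, but 43rd for Mdm2 and 75th for Gdf15. It was 2nd for Gbp2 and Irf7 and 3rd for Gbp4, genes whose medians over the compounds were negative (-1.07, -0.645 and -0.645). The place for Irf7 leans on the b arrays, without which its change was 0.55 and not called. Mthfd2 was lowest of all with etoposide (-0.94, beside -0.80 with 3-Methylcholanthrene), a place that leans on array c at 1 d, without which its change was -0.73 and not called. Myc and Polr1b were 2nd lowest.

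Idarubicin and doxorubicin, anthracyclines that also poison topoisomerase II, and cisplatin, which cross-links DNA, were compared with etoposide by the difference of the changes from their own controls, which are not shared. The doses differ, at 1.5 uM for both anthracyclines and 63 uM for cisplatin, so each difference is one of compound and dose together. Against idarubicin, 468 genes were higher with etoposide (3.29%) and 533 lower (3.75%). Of the 107 genes higher with etoposide 87 were called higher with idarubicin as well, and of the 105 lower genes 84 were called lower. Of all 212, 38 differed between the compounds. Over all genes tested, idarubicin against its own 18 controls called 842 higher and 1001 lower. Adam8 changed by 3.22 and 2.80, with a difference of 0.42 whose 95% interval ran from -0.12 to 0.97. Cdkn1a changed by 1.34 and 1.67, with an interval of the difference from -0.84 to 0.17. Lig4 rose less with etoposide (0.86 and 1.68, adjusted p of the difference 3.34e-05). The largest differences were in genes that rose steeply with idarubicin: Cdkn1c, which encodes the kinase inhibitor p57, changed by 0.84 with etoposide and 4.68 with idarubicin, Slc4a11 by 1.34 and 4.37, the fatty acid transport protein gene Slc27a3 by 0.73 and 3.56, and Ltk, a receptor tyrosine kinase, by 0.30 and 3.73. A second Slc27a3 probe set gave 0.03 ± 0.07 with etoposide. In the other direction, the smooth muscle actin-binding gene Tagln changed by -0.99 with etoposide and -4.03 with idarubicin, and skeletal actin, Acta1, by -0.33 and -4.34.

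Doxorubicin differed from etoposide at far fewer genes, 6 higher with etoposide (0.0422%) and 25 lower (0.176%). The contrast had 8 doxorubicin controls, where that with idarubicin had 18, so these counts do not have equal power. Of the 107 genes higher with etoposide 102 had the same sign with doxorubicin and 32 were called. Of the 105 lower genes 97 had the same sign and 16 were called. Over all genes tested, doxorubicin against its own 8 controls called only 103 higher and 55 lower, which bounds these overlaps. Myc was among the genes that differed, at -1.08 with etoposide and -0.06 with doxorubicin (adjusted p of the difference 1.54e-05). Svop, Ceacam1 and Art3 were higher with etoposide by 0.76, 0.74 and 0.61, whereas Rpp25, a subunit of RNase P, and Ddit4l, an mTOR inhibitor, had differences of -1.53 and -1.42, having risen with doxorubicin by 1.17 and 1.33. Against the etoposide controls, Ceacam1 and Art3 lost their calls without the b arrays, and Svop kept its call (1.31). For Cdkn1a, at 1.34 and 0.81, the interval of the difference ran from -0.05 to 1.09. Leaving out array b at 1 d gave 20 differing genes, 1 higher and 19 lower.

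Cisplatin differed from etoposide at more genes than either anthracycline, with 1837 genes higher with etoposide (12.9%) and 1388 lower (9.76%). Subtraction of each array's median turned this split to 1311 higher and 2399 lower, since it moved the median difference of all genes from -0.05 to -0.25. The very long genes had a median of -0.15 with etoposide and -1.29 with cisplatin, and 28 of 41 were higher with etoposide (24 after subtraction of array medians). The largest of the gene differences was Psd3, at 0.09 and -3.89. Magi3, a scaffold protein, had -0.32 and -4.02. Ribosome biogenesis went the other way, with list medians of -0.32 and 0.73 and 14 of 19 genes lower with etoposide (17 after subtraction). Adam8 was higher with etoposide (3.22 and 1.08) and Lig4 lower (0.86 and 3.07), both past the test, and for Cdkn1a the change was 1.34 and 1.44 with an interval of the difference from -0.66 to 0.46. Of the 107 genes higher with etoposide 47 were called higher with cisplatin, and of the 105 lower genes 62 were called lower. Over all genes tested, cisplatin against its own 8 controls called 1472 higher and 2056 lower. The compounds differ in their own numbers of calls and of controls. The counts of shared genes and of differing genes therefore do not rank them by likeness to etoposide.

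**Figure D5:**
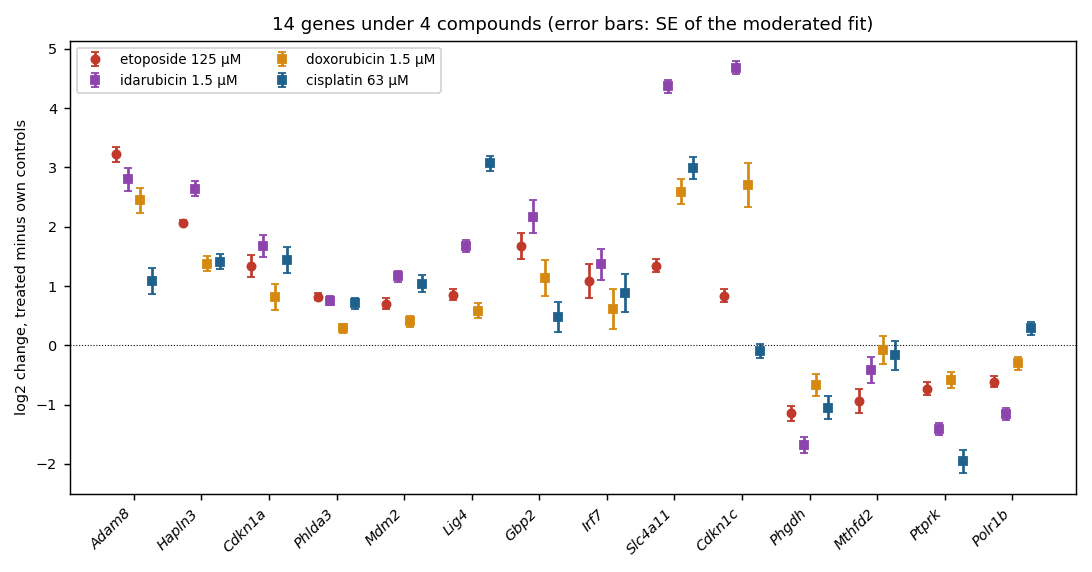
Log2 change against own controls (vertical axis, bars show the SE) of 14 genes with etoposide (125 uM), idarubicin (1.5 uM), doxorubicin (1.5 uM) and cisplatin (63 uM). Adam8 is highest with etoposide (3.22), Slc4a11 and Cdkn1c with idarubicin (4.37 and 4.68) and Lig4 with cisplatin (3.07), while Cdkn1a lies between 0.81 and 1.67 with all 4.

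Separation of arms without overlap was also counted over the whole array. All treated arrays lay above every control of their time, at both times, for 107 genes (0.753%) and below for 115 (0.809%). Of the 107 genes called higher 47 were among the former and of the 105 called lower 37 were among the latter. On each of the 3 extraction days, treated arrays were also set against the controls of that day and time, and 210 of the 212 called genes had the sign of their call on all 3 days. Those genes were called from the same arrays, which favours a shared sign, and over all genes 41.5% had 1 sign on all 3 days.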

How the data were processed

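Poly A RNA of primary rat hepatocytes was labelled and hybridized to Affymetrix rat arrays. The deposited table holds log2 values, which per the labels the authors made with RMA (version not given in the sources used here). It has 31099 probe sets and 939 arrays, with 0 columns left without a sample, and array medians of 5.54 to 5.62 over the 30 arrays used. For arrays, the number of arrays and the signal over background limit precision. Of the probe sets, 20832 had 1 gene symbol in the platform annotation, 436 had several and 9831 none, the latter left out; 20819 were matched to RefSeq symbols (GRCr8) and 13 kept the annotation symbol. Where a gene had several probe sets (4526 genes), the one with the highest mean over all arrays was used, leaving 14218 genes.

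limma 3.58.1 in R 4.3.3 fitted treatment with exposure time as covariate, and 4 group means for the values at each time and their difference. Calls used a Benjamini-Hochberg adjusted p of 0.01 and 1.5-fold, the interaction 0.05. Each comparison with another compound was 1 contrast over both sets of arrays. All of these main fits took the arrays as independent. The recovery of calls was tested on simulated data: of 100 genes changed by 1 on the log2 scale 98 were called, of 100 changed by 2 also 98, and 0 of the unchanged genes. The simulated arrays were independent of each other, with no shared culture, extraction day or letter. The count of 0 therefore does not measure false calls in the real arrays. Members and gene lists were chosen with earlier results of these data known. Named genes are the 15 largest called changes in each direction, the 6 largest called interactions (of which there were 0), the 5 largest called differences from each compound in each direction, all p53 and topoisomerase genes, and the 3 highest and 3 lowest of every other list; genes outside this rule were chosen after their values were seen, which covers Rprm, Gadd45b, Aldh18a1, Isg20, Ces2c, Mthfd2, Asns, Irf1, Eif2ak2, Hsdl2 and Smim35. Whether replicate numbers pair treated with control arrays was not settled, and the main fits did not use them. Alternatives covered the test, the fold bound, normalization, probe sets, a filter on low values, controls, extraction and hybridization day, replicate numbers and leaving out arrays.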

Additional observations from a re-analysis of the deposited data

Results flagged for a closer look

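Within the control groups of 4 and 8 arrays, an array far from the rest of its group was looked for among 36 genes, the 30 with the largest changes and the called p53 targets, by the gap to the nearest array over the range of the group (Dixon's 95% critical value). It was found in 6 of 144 pairs of gene and control group, where chance gives about 1 in 20. In control set 05 at 0.67 d, 1 array read 4.47 for Hapln3 beside a nearest value of 4.65, and 1 read 6.47 for Mthfd1l beside 6.92. In the same set at 1 d, 1 array read 7.55 for Slc7a1 beside 7.85. In control set 13, 1 array read 5.19 for Pinlyp at 0.67 d beside 4.31, and 5.16 at 1 d beside 4.43. Cd93 read 7.38 in 1 array of set 13 at 0.67 d beside 5.81.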

How the results depend on the processing

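The 212 calls over both times became 50 with a 2-fold bound and 139 (81 higher, 58 lower) with extraction day as a block, which kept 127 of the 212. Controls of set 05 alone gave 224 and of set 13 alone 187, which kept 180 and 125 of the 212. Leaving out each treated array in turn gave 164 to 219 calls. At 0.67 d the count was 51 in place of 103 with extraction day as a block and 43 to 110 leaving out 1 array, the lowest without array b at 0.67 d. At 1 d it was 43 to 131 in place of 121, the lowest without array b at 1 d. Leaving out 1 array, the difference from doxorubicin gave 20 to 33 genes in place of 31 (lowest without array b at 1 d), that from idarubicin 874 to 1087 in place of 1001 and that from cisplatin 3137 to 3302 in place of 3225. Over the other alternatives these were 26 to 41, 896 to 1139 and 3030 to 3710. The change that differs between the times gave 0 in every setting run but one, added after seeing the data, which took control culture and the letter of the treated arrays as a random effect and gave 1. Alternatives chosen after seeing the data were the 3 treated and 4 control arrays of a single extraction day (11 calls, 8 higher and 3 lower, with fewer arrays), control culture as a random effect (226 calls over both times, consensus correlation 0.445), each time fitted alone (72 and 83 calls) and the fit without the b arrays (143 calls). The fit with control culture left each treated array as its own block. None of the 212 changed sign in any setting. Of 77 named called genes, Mthfd1l and Phgdh kept their call in all 20 settings, and Adam8, Hapln3 and Spetex2l2 in the 19 that tested them, since the filter on low values left them out. Leaving the single-day fit aside, 29 kept it wherever they were tested. Treated and control arrays with the same replicate number had residuals correlated above 0.1 in 5 of 12 pairs (median correlation -0.02, as for pairs of other numbers). Each treated array was set against controls of both sets, of which at most 1 could share its culture. Whether the numbers pair the samples is therefore not settled by these values. With the replicate block 258 genes were called over both times (174 of the 212 kept), 140 at 0.67 d, 145 at 1 d, 0 between the times, and 1139, 41 and 3198 against idarubicin, doxorubicin and cisplatin. Signal near background limits genes such as Top2a, and 3 treated arrays a time limit the precision of each change.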
